A study of Mus musculus with 2 samples.

Results

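The genes described here are the clustered histone genes of the mouse, the multi-copy genes for linker histone H1 and the core histones H2A, H2B, H3 and H4, as measured in poly(A)-selected RNA of fetal liver. They were taken by symbol, as every gene whose name begins with Hist1h, Hist2h, Hist3h or Hist4h in the older mouse nomenclature. The rule found 67 of the 43346 mouse genes in the tables, of which 6 encode H1, 20 H2A, 16 H2B, 12 H3 and 13 H4. Of these, 64 are annotated as protein coding and 3 (Hist1h2aj, Hist1h2al and Hist3h2bb-ps) as pseudogenes. Another 3 symbols of the family (Hist2h2bb, Hist1h2bm and Hist1h2bh) have no row of their own in the tables and were not analysed here.

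The samples form 1 group, the liver of C57BL/6J embryos at day 18 (E18), from littermates of both sexes pooled together. Poly(A)+ RNA longer than 200 nt was depleted of ribosomal RNA, given spike-in RNAs and read in stranded pairs. There are 2 libraries, numbered biological replicates 1 and 2 in the labels, and no second age, tissue or treatment. Nothing in the labels says that the replicates came from separate animals, so an SD over 2 libraries covers the spread between these libraries and may be technical.

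Clustered histone genes are switched on as cells copy their DNA, and supply the histones that package the new strands. Their mRNAs are the well-known exception among those of animal cells, since most end in a short stem-loop, bound by the protein SLBP, in place of a poly(A) tail. Some clustered genes also make longer, tailed mRNAs from a poly(A) signal further along, which can be made outside S phase. The fetal liver before birth is a site of blood formation, with many dividing erythroid cells beside the hepatocytes. Both were seen in these libraries. All 8 hepatocyte markers and all 8 erythroid markers stood at a mean of at least 42.5 TPM (a transcript level corrected for length, scaled to a fixed total in each library), and of 4 neural markers 1 reached 1 TPM.

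The stem-loop is the sequence that sets these mRNAs apart, so it was searched for first in the GENCODE M21 transcripts (build GRCm38), within 120 bases after the stop codon. Of the 50 members whose annotated model runs at least 16 bases past the stop codon, 42 held it, against 48 of 20931 other protein-coding genes (0.229%). It started 21 to 58 bases after the stop codon (median 31.5). All 42 matches had fully paired stems and fell into 6 kinds. Each kind is represented by its member with the highest level, as RNA with the stem-loop of 16 bases in capitals and up to 5 flanking bases on each side.

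Hist2h2aa1: aaaaaGGCUCUUUUCAGAGCCaccca
Hist1h4n: cuaaaGGCCCUUUUCAGGGCCaucca
Hist1h3c: aaaaaGGCUCUUUUAAGAGCCaccua
Hist1h4i: uuaaaGGCCCUUUUUAGGGCCaccac
Hist1h4b: caaaaGGUCCUUUUCAGGACCacuca
Hist2h2ac: aaaaaGGCUCUUUUUAGAGCCaccaa

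The capitals lie at chr3:96246032-96246047 (plus strand) for Hist2h2aa1, chr13:21831798-21831813 (minus) for Hist1h4n, chr13:23745047-23745062 (minus) for Hist1h3c, chr13:22040966-22040981 (minus) for Hist1h4i, chr13:23757366-23757381 (plus) for Hist1h4b and chr3:96220418-96220433 (minus) for Hist2h2ac. The kind of Hist2h2aa1 was shared by 24 members, of which 3 encode H1, 10 H2A, 6 H2B and 5 H3. That of Hist1h4n was held by 7 members, all of them H4 genes. The kind of Hist1h3c was held by 6 members of types H1, H2B and H3, and the other 3 kinds by 2, 2 and 1 members. No H4 gene shared a kind with a gene of another type. The 8 members with enough sequence but no match included the highest of all, Hist1h2bc. The search ran along spliced models. The Hist1h2bc model has 2 exons, with its intron starting soon after the stop codon, so a stem-loop in that intron would be missed. Another 14 coding models end under 16 bases past the stop codon, so nothing can be read about their 3′ ends. A poly(A) signal (AAUAAA or AUUAAA) lay in the last 50 bases of 17 of the 64 coding members (26.6%), against 17041 of 21834 other protein-coding genes (78.0%). The 64 include those 14 short models, whose last 50 bases are mostly coding sequence. None of the 14 held a signal, which lowers the members' share. The tables were made on GENCODE M4, and 22 of the members' 72 transcripts have another length there than in M21, so the sequence of the model behind a value can differ from the one searched.

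Most clustered histone mRNAs were present in the poly(A)-selected libraries. Of the 67 members, 56 reached 1 TPM in each of the libraries (83.6%) and are called detected, against 11568 of 21474 protein-coding genes (53.9%). Their median over the detected members was 8.84 TPM, beside 8.81 TPM over all 12291 detected genes. Together the members held 1023 and 1414 TPM in replicates 1 and 2 (1218 ± 276, SD, n = 2). In counts, they took 0.0445% and 0.0594% of the mouse total of 159127981 and 136904842. A mean of 10 TPM or more was reached by 26 members, 32 stood between 1 and 10, and 9 under 1. Levels were uneven. The 5 highest members held 52.3% and 56.3% of the members' summed TPM, and Hist1h2bc alone 25.6% and 24.4%. Selection for poly(A) can lose untailed mRNA, so these are levels of captured RNA and not of all histone mRNA in the tissue. In these bulk samples, fewer cells making a histone mRNA, less of it in each cell and a smaller captured part cannot be told apart.

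**Figure D1:**
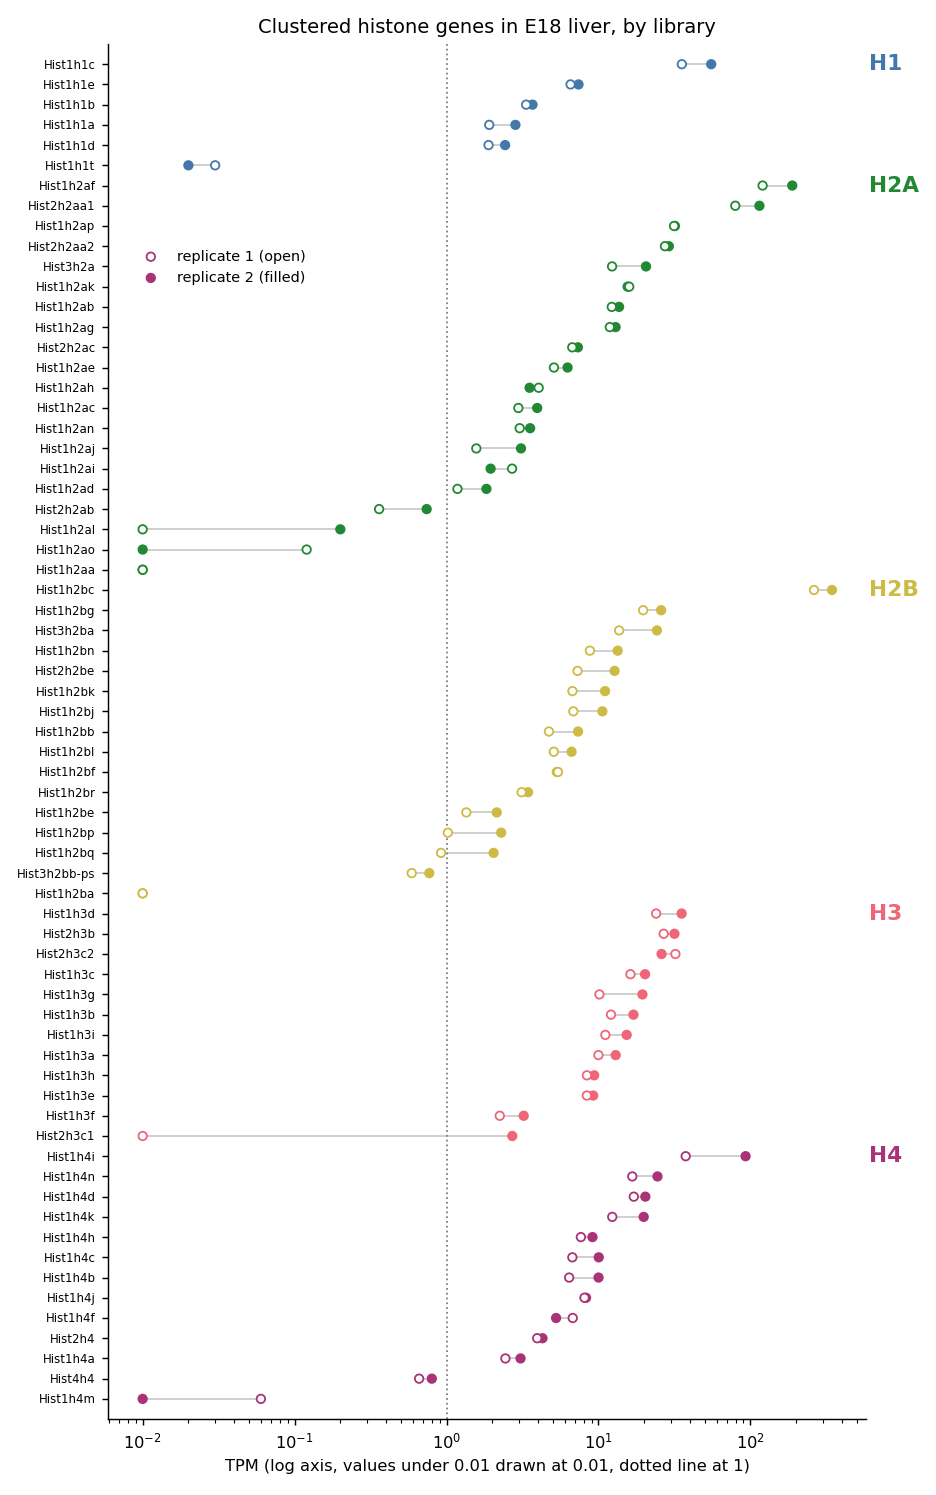
TPM of each of the 67 members in replicate 1 (open) and replicate 2 (filled), on a log axis, grouped by histone type. Hist1h2bc stands highest at 262 and 344 TPM, and 47 members lie between 1 and 30 TPM in both libraries.

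The linker histone H1 binds the DNA between nucleosomes. Its 6 members differ the most from one another, with 6 distinct proteins and 60.8% to 83.9% identity between coding sequences. Hist1h1c (chr13:23738808-23740367) stood at 35.4 and 55.2 TPM, from 7397 and 9517 counts, both above every other member of the type. Hist1h1e stood at 6.55 and 7.39 TPM and Hist1h1b at 3.34 and 3.68 TPM. Hist1h1t, the testis form of H1, had 2 counts in replicate 1 and 1 in replicate 2. The summed H1 level was 49.1 and 71.6 TPM. For comparison, the replacement gene H1f0, which is made outside S phase from a tailed mRNA, stood at 72.9 and 99.6 TPM, above the sum of the clustered H1 genes in each library. The libraries were selected for poly(A), so this sets a tailed mRNA against only the captured part of the clustered mRNAs.

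H2A and H2B pair with each other in the nucleosome, and their clustered genes gave the largest sums, 339 and 459 TPM for H2A and 347 and 472 TPM for H2B. The H2B sum rested on 1 gene. Hist1h2bc (chr13:23684199-23692908) stood at 262 and 344 TPM, or 303 ± 58.2, from 21223 and 22725 counts. Among genes averaging 1 TPM or more, 97.7% stood below it. It took 29.97% and 27.9% of all members' counts. The next H2B members by level were Hist1h2bg at 19.7 and 25.8 TPM and Hist3h2ba at 13.7 and 24.2 TPM. Hist2h2be, which has a long annotated model of 2620 nt and a poly(A) signal, stood at 7.28 and 12.8 TPM from 2723 and 3945 counts. Its counts were the second highest of the type.

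H2A was led by Hist1h2af (chr13:23533906-23534304) at 120.3 and 188.5 TPM from 3443 and 4241 counts. The annotated model of Hist1h2af covers little more than the coding sequence (399 nt), and its effective length, the number of places a fragment can start, was 184 and 174 nt, so its TPM rests on a short divisor. Hist2h2aa1 followed at 79.5 and 115 TPM, Hist1h2ap at 31.4 and 31.9 TPM and Hist2h2aa2 at 27.4 and 29.1 TPM. Hist3h2a had more counts than Hist1h2ap (3689 and 5096 against 1305 and 1058) but a lower level, 12.3 and 20.6 TPM, over a model of 2146 nt. The replacement gene H2afz stood at 393 and 384 TPM and H2afx, whose mRNA occurs with and without a tail, at 94.0 and 112 TPM. Poly(A) selection limits a comparison of these with the clustered H2A sum in the same way. The testis genes Hist1h2aa and Hist1h2ba had 0 counts in both libraries, and a count of 0 allows up to 3 counts, or 0.0189 and 0.0219 CPM of the mouse total (counting error only).

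H3 and H4 form the core tetramer of the nucleosome. The 12 H3 members encode only 2 distinct proteins and the 13 H4 members a single one, from 12 different coding sequences. The H3 members with the highest levels were Hist1h3d (24.0 and 35.3 TPM), Hist2h3b (26.9 and 31.6 TPM) and Hist2h3c2 (32.1 and 26.01 TPM), whose ranges overlap, so their order is not resolved. The H3 sum was 161 and 202 TPM. The replacement genes H3f3a and H3f3b, which supply H3.3 outside replication, together stood at 844 and 838 TPM, that is 5.23 and 4.14 times the clustered H3 sum. Poly(A) selection can lose untailed clustered mRNA, so this is a ratio of captured RNA and not of all mRNA in the tissue. H4, which has no replacement gene in the list, summed to 126 and 208 TPM. Hist1h4i (chr13:22040636-22041362) led it at 37.5 and 92.9 TPM, from 2985 and 6026 counts, and the next, Hist1h4n, stood at 16.7 and 24.5 TPM. Hist2h4 and Hist1h4j came next after Hist1h4i in counts but were lower per length, at 3.95 and 4.28 TPM and at 8.09 and 8.28 TPM.

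**Figure D2:**
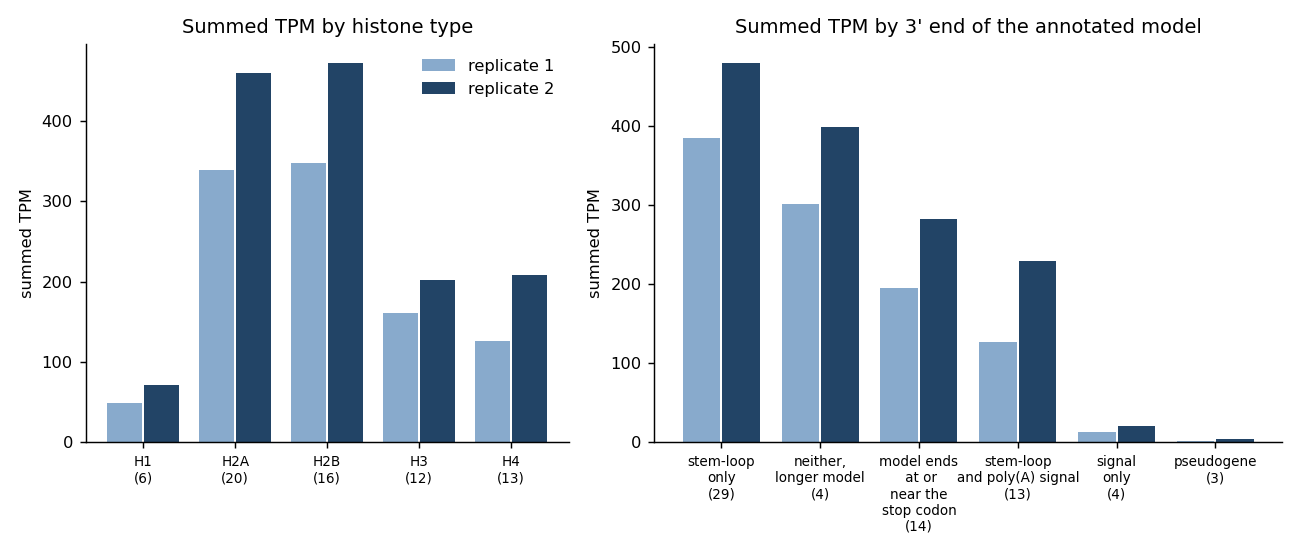
Summed TPM of the members in each library (bars), by histone type on the left and by the 3′ end of the annotated model on the right, with the number of members in brackets. H2A and H2B hold the largest sums among the types, and members with a stem-loop and no poly(A) signal hold the largest sum among the 3′ end classes.

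Grouped by 3′ end, the 29 members with a stem-loop and no annotated poly(A) signal summed to 384 and 479 TPM, and 27 of them were detected. The 13 with both features, among them Hist1h4i, Hist1h1c, Hist3h2a and Hist3h2ba, summed to 127 and 229 TPM. The 4 with a signal only, which include Hist2h2be, summed to 13.8 and 21.3 TPM. The 4 longer models in which neither feature was found summed to 301 and 398 TPM, mostly from Hist1h2bc, whose intron was not searched. Whether the RNA counted was tailed was not tested.

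The junction and contig lists of the authors' older run on build mm9 show the structure of the Hist1h2bc RNA. A contig is a stretch of continuous read coverage. One contig covered the whole gene and its surroundings at chr13:23776010-23784936 (mm9), and 9613 reads spanned an intron of 7554 bases within it, at chr13:23776491-23784044. A second intron start at 23777724, joined to the same end, had 480 reads. The most reads across any other intron within 1 member was 38, in each of Hist1h2bq and Hist1h2br. Of the 16 junctions of at least 10 reads that had both ends in members, 14 lay within 1 member. The other 2 joined members of the same type (pairs named after their values were seen). They ran from Hist1h4j to Hist1h4m over 76688 bases with 110 reads, and from Hist1h2ae to Hist1h2ac over 112809 bases with 36 reads. Hist1h4m was given 1.74 and 0 counts in the mm10 tables. Whether these reads come from RNA that joins 2 genes was not tested.

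Read coverage also ran past the annotated ends. In the mm9 run, 55 of the 56 members matched by identifier overlapped a contig on their strand, and the contig reached more than 100 bases past the annotated 3′ end in 36 and more than 500 in 22. Neighbouring genes on the same strand can share a contig, so these distances are upper values. For Hist1h4i the contig, at chr13:22131572-22133221 (mm9), ran 1113 bases past the 3′ end of the gene. For Hist1h2af it ran 54 bases past, for Hist1h1c 331 and for Hist2h3c2 974.

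Only 4 members have more than 1 transcript in the tables. Hist1h2bp has a form of 469 nt with a stem-loop, which took 53.5% and 68.8% of the gene's TPM, and a spliced form of 621 nt with a poly(A) signal, which took the other 46.5% and 31.2%. These rest on 51.3 and 86.1 counts in all. Hist1h2be was divided between a spliced form of 2408 nt (49.4% and 47.0%) and an unspliced one of 2099 nt (48.3% and 53.0%). Hist1h2bq was divided 59.3% to 40.7% in replicate 1 and 62.9% to 37.1% in replicate 2. For Hist1h2br, the form of 1256 nt took 100% in both libraries.

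Many members are near copies of each other, and the authors' tables give a posterior SD, the spread of a gene's count when fragments that match several genes are shared out again. Of the 58 members averaging 50 or more counts, 27 had an SD of at most 1% of the count in both libraries, 21 one between 1% and 5%, and 10 one above 5%. The median was 2.01% for the 35 members with another member at 98% coding identity or more, and 0.254% for the other 23. It was 0 in both libraries for 6 members, including Hist1h1b, Hist2h2be and Hist2h4. It was 0.0654% or less for Hist1h2bc, beside 99.0% identity to Hist1h2bj.

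**Figure D3:**
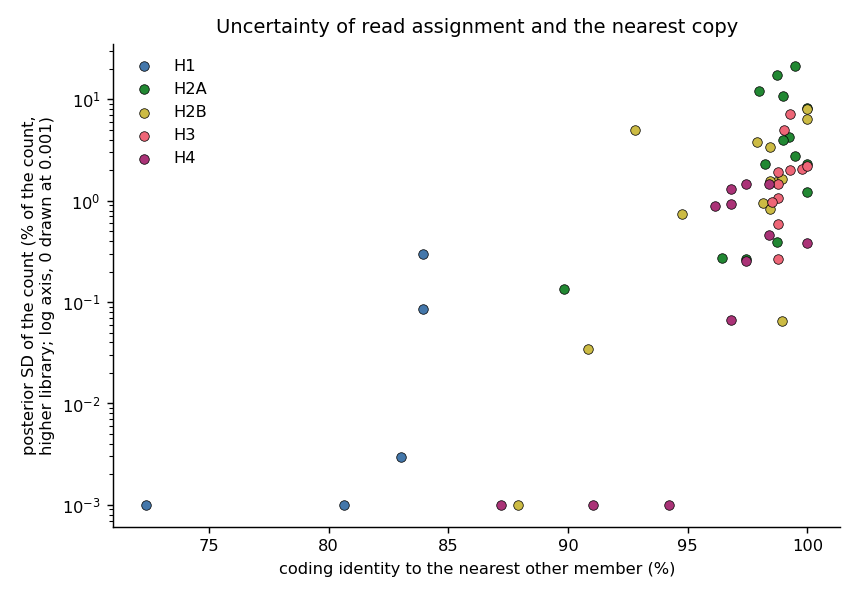
Posterior SD of the count, as a percent of the count in the library where it is higher (log axis), against the coding identity to the nearest other member, for members averaging 50 or more counts, except Hist2h3c1. Among these members, values above 5% occur from 97.96% identity upward, and 0 (drawn at 0.001) up to 94.2%.

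Of the 10 members with an SD above 5%, 4 have a copy with an identical coding sequence and 6 have a nearest member at 97.96% to 99.5% identity. Hist2h3c1 and Hist2h3c2 have the same coding sequence. Hist2h3c1 was given 0.07 counts in replicate 1 and 557 in replicate 2, with a posterior SD of 100.3 and 239 counts, and Hist2h3c2 was given 4016 and 2670. Read singly, both seem to differ between the libraries. Their sum was 4016 and 3228 counts, or 32.1 and 28.7 TPM. Hist2h2aa1 and Hist2h2aa2, also identical in coding sequence, together had 5921 and 6483 counts, of which Hist2h2aa2 was given 22.5% and 17.5%. Its SD was 7.94% and 8.29% of its count. The largest relative SDs after Hist2h3c1 were those of Hist1h2ad (21.4% and 18.9%) and Hist1h2ai (11.8% and 17.5%), from 45.3 and 56.3 counts and from 74.9 and 42.3 counts. Neither has an identical copy. An identical copy did not always go with a large SD, since Hist1h4n, identical in coding sequence to Hist1h4m, had an SD of 0.38% or less of its count.

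The members lie in a few clusters. On chromosome 13, 53 of the 54 Hist1 members lie within 2219 kb, and the 9 Hist2 members lie within 49.3 kb on chromosome 3. Within them, 12 pairs of an H2A and an H2B gene stand head to head with 176 to 306 bases between their starts. One more, on chromosome 11, joins Hist3h2a to the pseudogene Hist3h2bb-ps. Of the 11 pairs of coding genes with counts, 4 were within 2-fold of each other in mean TPM. Hist1h2bc stood at 303 TPM while its partner, Hist1h2ac, stood at 3.46, and Hist1h2bg stood at 22.8 while Hist1h2ae stood at 5.68. In 2 of the 11 pairs (Hist1h2ao with Hist1h2bq, Hist1h2ap with Hist1h2br) each partner has an identical copy in the other pair, so the split of counts bears on their levels.

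Promoter letters varied with histone type. RefSeq windows of 300 bases on GRCm38.p6, from 250 before to 50 after the start, matched 58 members. CCAAT on either strand was present in all 46 windows of H1, H2A, H2B and H3 genes, but in 3 of 12 H4 windows, and in 37.4% of all 32851 windows. TATAAA was present in 35 of 58 (13.6% of all windows). The octamer ATTTGCAT, known as an element of H2B promoters, was present in 7 of 17 H2A and 5 of 13 H2B windows, in no H1, H3 or H4 window, and in 1.74% of all windows. Since head-to-head pairs share sequence, an H2A window can hold the octamer of its H2B partner. A match is a description of letters and not a site. The windows of Hist1h2bg, an H2B gene with all 3 motifs, and of Hist1h4i, the leading H4 gene, are printed with these motifs in capitals. They lie at chr13:23571150-23571449 (plus strand) and chr13:22041313-22041612 (minus strand).

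Hist1h2bg: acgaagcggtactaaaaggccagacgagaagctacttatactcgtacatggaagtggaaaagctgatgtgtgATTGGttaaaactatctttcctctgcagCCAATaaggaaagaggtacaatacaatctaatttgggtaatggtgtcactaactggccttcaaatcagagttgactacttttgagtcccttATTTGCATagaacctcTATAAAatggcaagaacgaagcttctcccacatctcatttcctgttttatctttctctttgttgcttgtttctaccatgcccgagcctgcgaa
Hist1h4i: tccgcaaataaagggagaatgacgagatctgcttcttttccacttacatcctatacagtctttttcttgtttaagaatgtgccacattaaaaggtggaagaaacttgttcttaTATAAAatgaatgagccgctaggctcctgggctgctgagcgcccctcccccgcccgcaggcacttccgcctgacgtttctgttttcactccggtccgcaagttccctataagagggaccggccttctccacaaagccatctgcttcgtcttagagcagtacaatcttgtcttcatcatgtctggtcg

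The Hist1h2bg window has the octamer shortly before the TATAAA, with CCAAT letters further upstream on both strands. The Hist1h4i window holds a TATAAA but neither CCAAT nor the octamer.

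The libraries differed in their histone level. Expected counts were scaled over all genes by TMM, and replicate 2 was set over replicate 1 as a log2 ratio, with 0.5 added, so low genes are understated. Of the 61 members averaging 10 or more counts, 49 were higher in replicate 2 (80.3%), against 49.4% of all 17608 genes entered. Their median log2 ratio was 0.24, beside 0.00 over all genes, and the middle part of the members ran from 0.01 to 0.47 (quartiles), that of all genes from -0.17 to 0.15. With 1 library on each side there is no test of this difference. Members that share fragments are not independent of each other, but among the 28 members with a posterior SD of at most 1% of the count, 24 were higher and the median was 0.25. By counting error alone (exact binomial interval at 95%), 30 members lay above 0, 5 below and 26 on neither side. The share of members higher was 90.2% on the deposited TPM (65.9% of all genes) and 96.7% with counts scaled by spike-ins (92.0% of all genes). Spike-in scaling moved the median of all genes to 0.53, and 49 of 61 members lay above that median too.

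**Figure D4:**
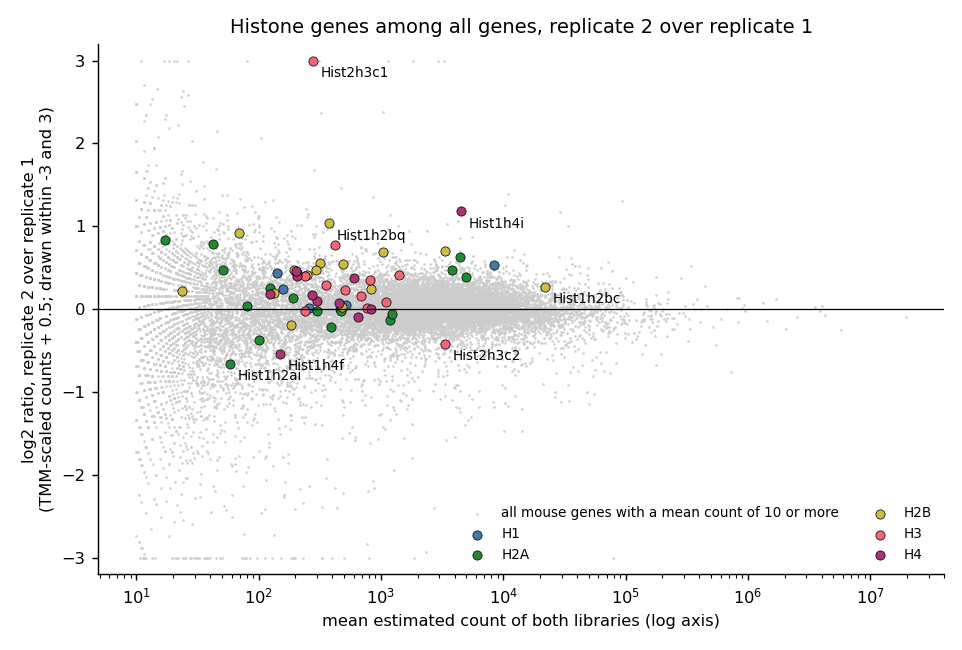
Log2 ratio of replicate 2 over replicate 1 (TMM-scaled counts with 0.5 added) against mean estimated count (log axis) for all 17608 genes entered (grey) and the 61 members entered (coloured by type). Most members lie above 0, with Hist1h4i at 1.18 and Hist2h3c2 at -0.42.

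The histone types differed in their per-gene medians. All 5 H1 members entered and 14 of 15 H2B members were higher in replicate 2, with medians of 0.24 and 0.47. Among the H1 genes, the counting intervals of Hist1h1b (0.01), Hist1h1e (0.04) and Hist1h1d (0.24) held 0. For H3 and H4, 10 of 12 members were higher in each, with medians of 0.26 and 0.17. For H2A the count was 10 of 17, not far from the share over all genes, and the median was 0.04. Summed counts gave another order, in which H2A and H2B were level. On these sums the ratio was 0.34 for both H2A and H2B, 0.48 for H1, 0.12 for H3 and 0.67 for H4. Single genes weigh heavily in the last and in H1. Hist1h4i held 2985 and 6026 of the 7036 and 9951 H4 counts, and Hist1h1c 7397 and 9517 of the 8498 and 10579 H1 counts. Of the 10 head-to-head pairs of coding genes with both partners entered, the H2B gene had the higher ratio in 9 (8 on the deposited TPM). The partners had ratios of opposite sign in 7 pairs with TMM, in 4 on the deposited TPM and in 1 with spike-in scaling. By 3′ end, members with both a stem-loop and a poly(A) signal had the highest median (0.54, 11 of 12 higher), and those with a stem-loop only had 0.24 (20 of 27 higher). Members with a signal only had 0.44 and longer models with neither feature 0.35, with 4 of 4 higher in each. Models ending near the stop codon had 0.12 (8 of 12 higher). Differences between types or classes were not tested.

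Beyond 2-fold, 3 of 61 members were higher in replicate 2 (4.92%, against 1.20% of all genes) and 0 lower (3.18% of all genes). Hist1h4i was the only one of the 3 without an identical copy. Its ratio was 1.18 (counting interval 1.12 to 1.24), and it was also the H4 gene with a stem-loop kind shared only with Hist2h4, whose ratio was 0.00. The others were Hist1h2bq, at 1.03, and Hist2h3c1. For Hist1h2bq with its copy Hist1h2br, the ratio of the summed counts (771 and 947) was 0.46, and for Hist2h3c1 with Hist2h3c2 it was -0.15, so neither pair passed 2-fold as a sum. Among members averaging 50 or more counts, the lowest ratios were those of Hist1h2ai (-0.67), Hist1h4f (-0.54, from 185 and 113 counts) and Hist2h3c2 (-0.42).

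Gene length was looked at beside this, because the members are short. Of the members, 49 of the 61 had an effective length under 600 nt, and 38 of these were higher in replicate 2, with a median of 0.24. Of the other protein-coding genes that short, 36.6% of 661 were higher, with a median of -0.07. The 12 longer members had a median of 0.46, 11 of them higher. These signs are relative to all genes, since with spike-in scaling the short genes' median was 0.47.

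Lists of genes that work with the clustered histones had other medians. The S-phase list holds replication genes such as Pcna, a sliding clamp of DNA polymerase. Of its 24 genes, 3 were higher in replicate 2 and the median ratio was -0.10, where spike-in scaling gave 0.44 and all 24 higher. Pcna stood at 164 and 152 TPM, Ccna2 at 60.2 and 63.1, Mcm7 at 59.1 and 62.7 and Mcm6 at 56.6 and 56.8. The ratios use TMM-scaled counts and not TPM, so a gene can be higher in TPM but lower by its ratio. Ccna2 (-0.04), Mcm7 (-0.05) and Mcm6 (-0.05) were such genes. Of 13 genes of histone pre-mRNA processing and histone gene activation, 6 were higher (median -0.02, or 0.51 with spike-in scaling). Slbp, which binds the stem-loop, stood at 62.4 and 54.1 TPM, and Sympk, a scaffold of the cleavage complex, at 19.5 and 25.4. Srrt stood at 19.7 and 24.3 TPM and Cpsf3, the endonuclease of the complex, at 16.7 and 17.2. Histone chaperones were even (9 of 17 higher, median 0.00), with Ssrp1 of the FACT complex at 61.7 and 64.3 TPM, Nap1l1 at 54.3 and 60.6, Hjurp at 47.9 and 59.0 and Asf1b at 46.3 and 43.7. Replacement histones, among them H2afx, had 8 of 11 higher and a median of 0.03.

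RNAs that lack a poly(A) tail or stay in the nucleus were also mostly higher in replicate 2. Of the 8 such RNAs with a mean count of at least 10, 7 were higher in replicate 2 (median 0.37). Rn7sk, the 7SK RNA, stood at 1353 and 3183 TPM, Rmrp at 105 and 179, Malat1 at 92.5 and 109 and Rpph1 at 61.2 and 104. The spike-ins took 2.79% and 2.01% of all counts. Cell markers also differed between the libraries. Neutrophil markers were higher in replicate 2 in 8 of 8 cases (median 0.38, summed 9385 and 13495 TPM), B lymphoid markers in 0 of 8 (median -0.45, 176 and 133 TPM), erythroid markers in 0 of 8 (median -0.16, 224613 and 218468 TPM) and hepatocyte markers in 3 of 8 (median -0.02). Pancreas acinar markers, of a neighbouring organ, summed to 79.0 and 26.9 TPM, with 1 of 8 higher in replicate 2 (median -7.37). Ctrb1 stood at 35.7 and 0.22 TPM and Cela2a at 7.71 and 0.05. Most of the sum in replicate 2 came from Cela1 (14.3 and 18.1 TPM) and Pnliprp1 (11.15 and 8.06 TPM). Prss2 and Try5 had 0 counts in replicate 2 and no listed marker was at 0 in both. With spike-in scaling the medians of these lists lay above 0 except that of the pancreas list (erythroid 0.38, B lymphoid 0.08, hepatocyte 0.52), as they moved with all genes. The part of any of these in the histone difference was not tested.

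**Figure D5:**
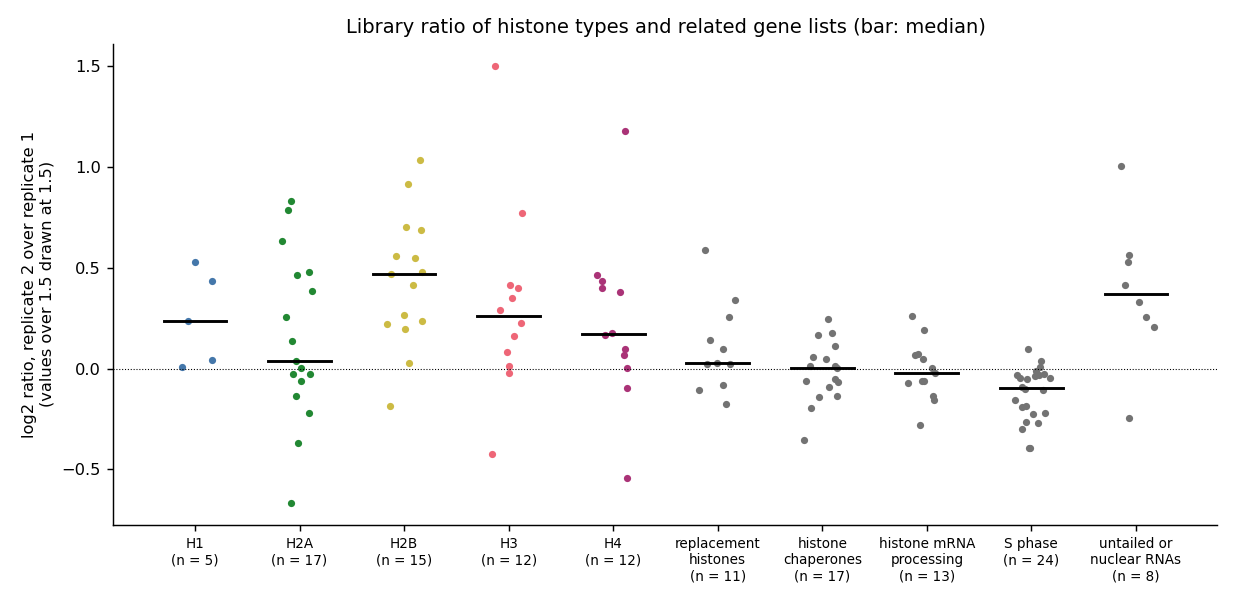
Log2 ratio of replicate 2 over replicate 1 for each gene with a mean count of at least 10, for the 5 histone types and 5 related lists (points), with the median of each (bar). The medians run from 0.04 to 0.47 over the histone types, lie between -0.10 and 0.03 for 4 of the lists (0.44 to 0.56 with spike-in scaling), and reach 0.37 for untailed or nuclear RNAs.

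The authors' mm9 run gives a second reading of the same genes in RPKM, as 2 values whose order carries no library label. Of 56 members matched, Hist1h2bc was again highest at 65.9 and 50.5 RPKM, followed by Hist1h4i at 32.9 and 13.8 and Hist1h2af at 26.2 and 19.6. Hist1h4i again showed a large gap between its 2 values, but it was not alone in this. Hist1h2br stood at 4.87 and 1.81 RPKM, while its ratio on the mm10 counts was 0.03. Of the 52 members with a mean of at least 0.1 RPKM, the first value was the higher in 47, but this was so of 75.6% of all 14737 genes at that level. The split of near copies differed between the runs. Hist2h2aa1 and Hist2h2aa2 stood at 25.2 and 18.8 RPKM and at 23.6 and 14.8 RPKM, almost evenly, where the mm10 tables gave most to Hist2h2aa1. Hist1h2ad stood at 9.59 and 7.64 RPKM, 11th among members, against 1.18 and 1.83 TPM. Of the 2 testis genes at 0 counts in the mm10 tables, Hist1h2ba stood at 0.178 and 0.139 RPKM and Hist1h2aa at 0 in both values. Annotation, build and unit all differ between the runs.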

How the data were processed

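Poly(A)+ RNA of E18 mouse liver was measured in 2 libraries of 1 group. The deposited tables were made by the authors on build mm10 with GENCODE M4, per the file headers and deposited notes. Aligner and quantifier: not given in the sources used here. The tables give an expected count per gene, an estimated number of fragments that the authors' software assigned. The deposited TPM is corrected for effective length, and the deposited FPKM served only as an alternative. The posterior SD of the count is a score of uncertainty from the authors' software. The percent of a gene's TPM held by each transcript was also deposited by the authors. For the older build mm9, the authors' gene table (ENSEMBL 65) gives 2 RPKM values per gene, the deposited junction list a read count over both libraries, and the deposited contig list a coverage signal that was not used as a value.

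Symbols and positions came from GENCODE M21 by gene identifier, and promoter windows from RefSeq (GRCm38.p6), matched through gene synonyms. Rounded expected counts were given TMM factors (edgeR 4.0.16, R 4.3.3), with DESeq2 1.42.0 size factors as an alternative. The log2 ratio of replicate 2 over replicate 1 used genes with a mean count of at least 10 and 0.5 added, and was tested on simulated data. With 1 library a side, no p-value is given. Rows naming no mouse gene were left out. Totals of 159127981 and 136904842 mouse counts set the precision, and intervals cover counting error only. A stem-loop was searched as 16 bases with a 4-base loop, allowing 1 mismatch in its inner pairs. Coding identity came from global alignment (Biopython 1.88).

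Members and gene lists were chosen with earlier results of these data known. Named are the 12 members with the highest TPM, up to 3 of each type by counts, the 3 highest and 3 lowest ratios and the 3 highest posterior SDs at a mean count of at least 50, members with 2 or more transcripts above 10%, and up to 4 genes of each list by TPM. Any other member was named after its values were seen, as the holder of a sequence kind, a copy or partner of a named member, or one at 0. Hist1h1d and the listed genes H1f0, Prss2 and Try5 were also named after their values were seen.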

Additional observations from a re-analysis of the deposited data

How the results depend on the processing

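The direction of the members' median ratio was the same under all 7 alternatives tried. It moved by more than 0.1 under 2 of them, to 0.77 with spike-in scaling, which moved all genes (median 0.53), and to 0.39 on the deposited TPM. Relative to the median of all genes, the members' median was between 0.24 and 0.30 in every setting. Of single genes named, 4 changed sign with spike-in scaling, namely Hist1h2ap (0.40), Hist1h4j (0.44), Hist2h2aa2 (0.47) and Hist2h3c2 (0.11), and 3 changed sign on the deposited TPM, namely Hist1h2ap (0.0195), Hist1h4j (0.0331) and Hist2h2aa2 (0.0856). A further 22 moved by more than 0.1 without a change of sign with spike-in scaling, and 21 did so on the deposited TPM. DESeq2 size factors changed none of the 26. The number of members detected was between 56 and 60 by the other thresholds and libraries. The summed levels from rescaled FPKM, from posterior mean TPM and from coding members alone stayed within the SD over the 2 libraries. Each single library always lies within that SD of the mean, so leaving out 1 library was no check on the sums. The number with a stem-loop was 38 within 60 bases and 42 with 0 mismatches, which was no check because all 42 matches were fully paired. The number higher in replicate 2 ran from 46 to 59. Both kept within 1.5 times, but a rise past that limit was not possible, since it exceeds the number of members searched or entered. No paired analysis was possible because the series has 1 group.

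With 2 libraries, no difference between them has a replicate check. Depth does not limit the leading members, but those at a mean count under 50 are imprecise, and where identical copies have a large posterior SD the sum is the firmer value. The TPM of models that end near the stop codon rests on short effective lengths. Members' 3′ ends were read from a later annotation than the one counted.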
